A study of Mus musculus with 6 samples.

Results

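The mitochondrial ribosome reads the few messages encoded by mitochondrial DNA, all of them for membrane proteins of the respiratory chain and ATP synthase. Its RNA comes from mitochondrial DNA, but every one of its proteins is encoded in the nucleus, made in the cytosol and imported. Red cell precursors need working mitochondria for the first and last steps of haem synthesis and lose them as they mature. The genes described here are those of this ribosome's proteins, taken as every array feature (probe set) annotated to 1 gene alone whose symbol is Mrpl or Mrps followed by a number. The rule gave 156 of 45101 probe sets, for 76 of 18193 genes. Of these, 47 genes (104 probe sets) carry the large-subunit prefix Mrpl and 29 genes (52 probe sets) the small-subunit prefix Mrps. RefSeq lists 78 protein-coding genes with such symbols. Mrpl30 and Mrpl53 were left out because each shares its probe sets with another gene.

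RNA was compared between 3 fetal livers labelled wild type and 3 labelled Eklf knockout, all C57BL/6 at embryonic day 13.5. Eklf, now Klf1, is a zinc-finger activator of red cell genes. From each liver, cells stained with 7AAD, anti-CD71 and Ter119 were sorted as early erythroid progenitors, and 1 Affymetrix array was hybridised per sample. The series title places the study in the failure of terminal erythroid differentiation without EKLF. The Klf1 probe set read 2508, 2706 and 4029.7 on the arrays labelled wild type and 3505, 1391 and 2545 on those labelled knockout. The difference was -0.38 on the log2 scale (exact permutation test, two-sided, p = 0.5, the smallest possible being 0.1). The position of the deletion is not given in the sources used here, so this probe set neither bears out nor contradicts the labels, and the groups are called by their labels.

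Signals are MAS5 intensities on a linear scale, with every array scaled to the same trimmed mean of 500. The median signal of an array was 97.7 to 139.7 in the wild-type-labelled group and 204 to 218 in the knockout-labelled group, so dim features read higher in the latter. Array-to-array correlations of log2 signal were 0.922 to 0.944 among the wild-type-labelled, 0.897 to 0.906 among the knockout-labelled and 0.822 to 0.858 between groups. All 12 hepatocyte marker genes tested were higher in the knockout-labelled arrays, their summed signal going from 8291 to 8785 up to 110120 to 180970. The 7 lymphoid markers were all lower, with sums of 21706 to 32494 against 711 to 1134. All 7 megakaryocyte markers were higher (sums 6868 to 7978 against 31357 to 40479), as were 4 of 6 endothelial markers (1466 to 1776 against 3714 to 4843). Of 7 macrophage markers 5 were higher and 1 lower (10057 to 12456 against 10673 to 14355), and of 7 granulocyte markers 4 were lower (134390 to 157080 against 78408 to 166230). The erythroid markers, 7 of 9 higher and 1 lower (21266 to 24109 against 57134 to 68069), were present in both groups. A sum of array signals does not reach 0 even where single markers are dim, so it does not show that a cell type was present. Rag1 read 4.57, 60.2 and 21.0 on the knockout-labelled arrays and Marco 11.5, 7.43 and 8.81 on the wild-type-labelled ones. These values are under the filter signal of 98.6. C1qa, Timd4, Cd163 and Cd3e were under the filter on low values over all arrays. The part of these other cells in the results below was not tested. In sorted bulk RNA, fewer cells of a type and less RNA per cell cannot be told apart.

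The promoters of 4 genes that the results below turn on are shown first, because Klf1 is a factor that binds CACCC-type boxes and because several mitochondrial ribosomal protein genes share a start region with a neighbour on the opposite strand. The sequences are from RefSeq (GRCm38.p6), 5′ to 3′ on the gene's own strand, running up to 30 bases past the start and, where another gene starts upstream on the opposite strand, up to 30 bases past that start. Capitals mark matches, on either strand, to CCGGAAG (the core bound by ETS factors such as GABP), GCGCNTG (an element bound by NRF1), AAGATGG (bound by YY1) or CCNCNCCC (the box bound by KLF factors). Mrpl33 (chr5:31613701-31613980, plus strand) holds a KLF, an NRF1 and an ETS match. Mrps12 (chr7:28741792-28741997, minus strand) holds an ETS match just after its start and shares its promoter with Sars2. Mrpl43 (chr19:45006413-45006587, minus strand) holds 2 ETS and 1 NRF1 matches between its start and that of Twnk. Its 2 KLF matches lie outside that stretch, 1 past each start. Mrpl32 (chr13:14613008-14613271, minus strand) holds 5 NRF1 matches and faces Psma2.
Mrpl33: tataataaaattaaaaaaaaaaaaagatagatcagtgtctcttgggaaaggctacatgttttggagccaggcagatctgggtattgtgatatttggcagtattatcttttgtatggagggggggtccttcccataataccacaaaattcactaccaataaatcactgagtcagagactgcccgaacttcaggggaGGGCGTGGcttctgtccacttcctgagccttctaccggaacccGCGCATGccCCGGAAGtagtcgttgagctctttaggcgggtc
Mrps12: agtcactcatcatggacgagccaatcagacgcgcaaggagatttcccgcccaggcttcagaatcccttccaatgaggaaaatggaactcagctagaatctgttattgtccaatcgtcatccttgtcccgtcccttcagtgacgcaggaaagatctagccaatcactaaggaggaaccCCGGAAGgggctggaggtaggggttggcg
Mrpl43: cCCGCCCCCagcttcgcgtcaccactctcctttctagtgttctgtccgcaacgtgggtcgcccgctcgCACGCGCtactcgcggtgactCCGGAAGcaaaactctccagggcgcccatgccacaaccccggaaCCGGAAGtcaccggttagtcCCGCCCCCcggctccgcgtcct
Mrpl32: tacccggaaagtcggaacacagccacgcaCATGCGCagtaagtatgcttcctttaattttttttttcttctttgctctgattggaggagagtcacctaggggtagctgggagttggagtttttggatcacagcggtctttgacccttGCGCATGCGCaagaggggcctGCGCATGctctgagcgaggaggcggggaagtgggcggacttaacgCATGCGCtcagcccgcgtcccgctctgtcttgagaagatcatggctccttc

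On the deposited scale the mitochondrial ribosomal protein genes moved little as a group. Of the 76 genes, 14 were lower and 4 higher in the knockout-labelled samples at a limma adjusted p under 0.05, and 58 were not called. All 76 passed the filter on low values. Among all 12799 genes tested, 48.7% were called, 27.9% as higher and 20.8% as lower, against 23.7% of the Mrp genes, 5.26% as higher and 18.4% as lower. Without regard to brightness, the share called lower was thus near that of all genes, and the share called higher was below it. Among the brightest genes both shares were below, as given in the next paragraph. The median log2 difference, knockout-labelled minus wild-type-labelled, was -0.14 over the 76 genes (quartiles -0.41 and 0.14) and 0.14 over all genes (quartiles -0.48 and 0.90). Relative to the median of all genes, the Mrp median stood at -0.28 on the deposited scale. Median centring moves every gene by the same -0.815 and left this unchanged, whereas quantile normalization turned it to 0.05 and cyclic loess to 0.02, so its sign depended on the scaling. It was -0.53 with no filter on low values and -0.088 with the filter at the 60th percentile, since the filter changes which other genes are counted. The split of all calls moved too, with 57.3% of them higher on the deposited scale and 44.8% when the arrays were quantile-normalized, where 12 Mrp genes were higher and 9 lower. Cyclic loess gave 46.3%, with 11 Mrp genes higher and 8 lower, and median centring gave 15.0%, with 59 Mrp genes lower and none higher.

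The narrow range of the differences was the plainest feature of the group on the deposited scale. The absolute log2 difference had a median of 0.299 over the Mrp genes and 0.677 over all genes. Only 3 of 76 Mrp genes (3.95%) changed at least 2-fold, against 33.6% of all genes, and 56 (73.7%) differed by under 0.5, against 38.8%. These are distances from 0 and hold for the deposited scaling only. Median centring, which moves every difference by -0.815, puts the Mrp median at -0.96. Mrp genes were bright, with a median signal of 1568 against 573, and with all genes tested cut by mean signal into 4 classes of equal size, 46 Mrp genes lay in the brightest class, 28 in the next, 2 in the one after and none in the dimmest. Within the brightest class (mean signal from 1340.0) the median absolute difference was 0.244 for the Mrp genes and 0.4998 for all genes, at standard errors of 0.176 and 0.179. There 7 of 46 Mrp genes (15.2%) and 50.4% of all genes were called. By direction, 13.0% of these Mrp genes were lower and 2.17% higher, against 35.3% and 15.1% of all genes. In the next class 11 of 28 Mrp genes (39.3%) and 44.7% of all genes were called. Lower calls made up 28.6% there and higher calls 10.7%, against 27.9% and 16.8% of all genes. No test of these contrasts in spread or calls was made.

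**Figure D1:**
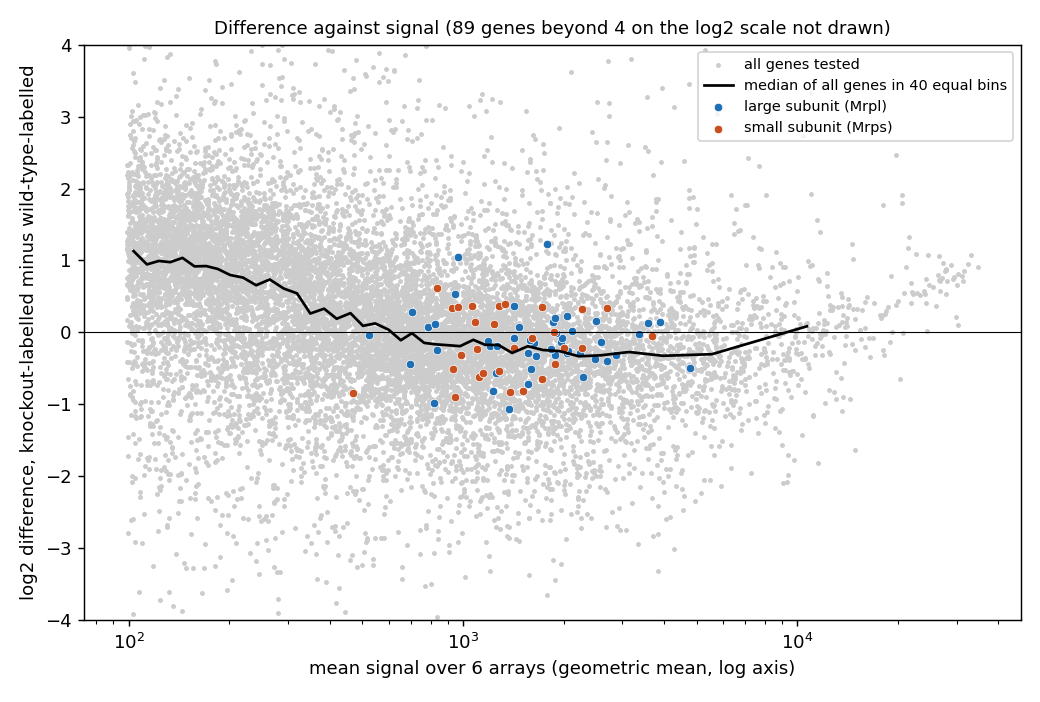
Log2 difference (knockout-labelled minus wild-type-labelled, vertical axis) against the mean signal over 6 arrays (log axis) for all genes tested (grey), Mrpl genes (blue) and Mrps genes (orange), with the median of all genes in 40 equal bins as a black line. Dim genes lie above 0 and the Mrp genes, with signals from 469.6 to 4787, lie close to the line for genes of their brightness. The signs of the line and of the Mrp median (-0.14) depend on the scaling, the latter being 0.02 after quantile normalization.

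On the deposited scale, most Mrp genes that were not called were measured closely enough to bound their change. Of the 58, 57 had a 95% interval of the log2 difference that stayed within 1 of 0. These bounds hold for that scaling only, since median centring alone moves every difference by -0.815. Mrpl22, a homologue of bacterial ribosomal protein L22, read 2193, 2039.8 and 2081 on the arrays labelled wild type and 2208, 2073 and 2091 on those labelled knockout, a difference of 0.01 (95% interval -0.30 to 0.33). Mrps14 read 3611, 3520.4 and 4103 against 3567, 3657 and 3592, a difference of -0.05 (95% interval -0.37 to 0.26). The groups overlap for both genes. The exception was Mrps27, a protein with pentatricopeptide repeats, at 658, 576 and 655 against 629, 472 and 146. Its difference of -0.84 (95% interval -1.88 to 0.20, limma adjusted p = 0.156) rested on the third knockout-labelled array, the lowest value of the 6.

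**Figure D2:**
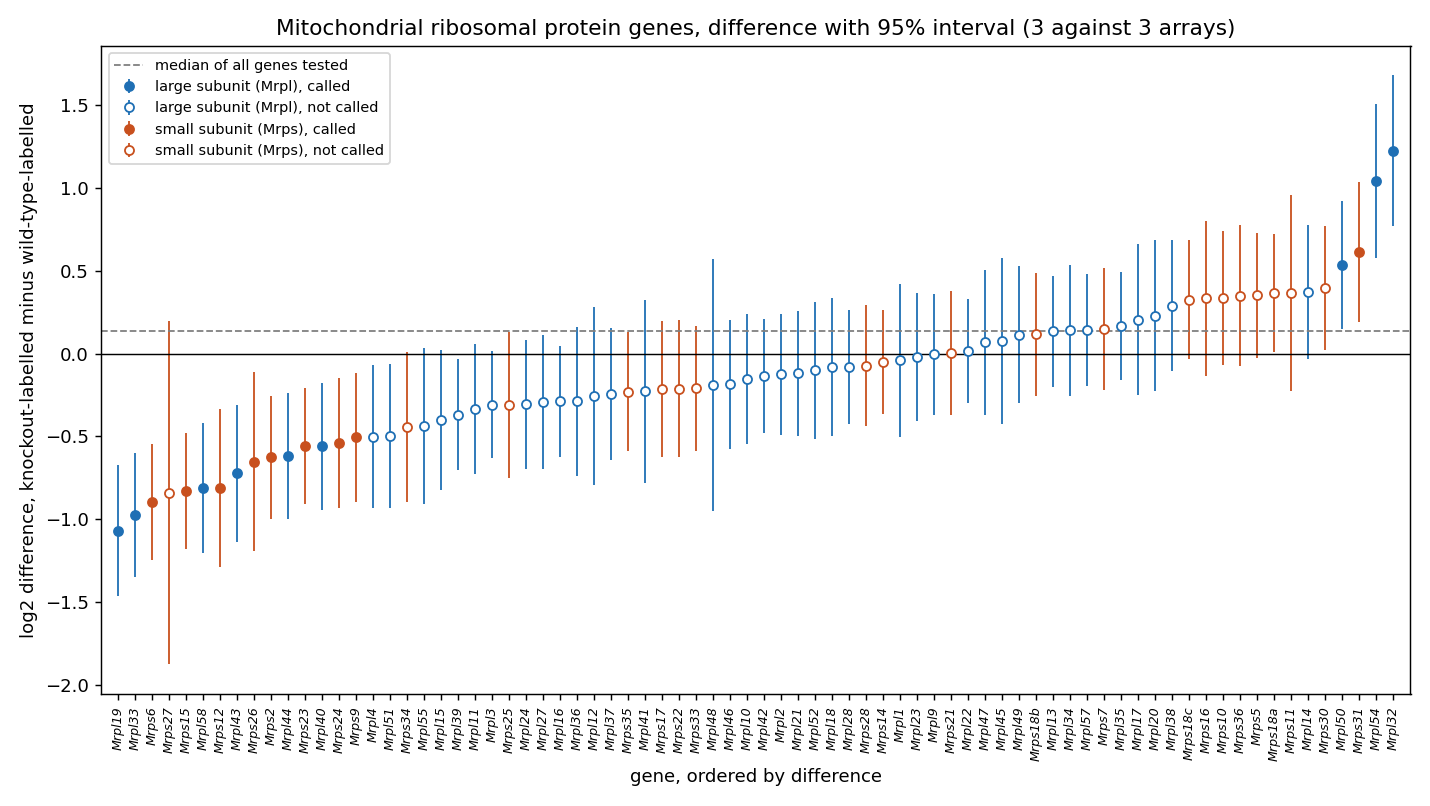
Log2 difference (knockout-labelled minus wild-type-labelled) of each of the 76 Mrp genes with its 95% interval from limma, 3 against 3 arrays, in order. Filled points passed an adjusted p of 0.05 (14 lower, 4 higher), open points did not, and the dashed line is the median of all genes (0.14). The median of all genes moves with the scaling, from -0.68 after median centring to 0.14 as deposited.

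The values of the 2 groups did not overlap for 30 Mrp genes, 20 of them lower and 10 higher in the knockout-labelled samples, and overlapped for 46. Among all genes tested, 59.3% did not overlap. That share was not split by direction, so nothing is read from the direction of the 30 genes. The 20 lower genes were 10 of the 47 Mrpl and 10 of the 29 Mrps genes. Counts of calls moved with single arrays. Without wild-type-labelled array 1, knockout-labelled array 2 or knockout-labelled array 3 there were 2 higher calls, and without wild-type-labelled array 3 there were 8. Lower calls numbered 9 without wild-type-labelled array 1 or knockout-labelled array 2, and 17 without knockout-labelled array 1. Of the 18 called genes, 9 were called in the same direction whichever of the 6 arrays was dropped.

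The large-subunit genes called lower were 6 of 47, led by Mrpl19, Mrpl33 and Mrpl58. Mrpl19 (chr6:81957826-81965949), whose bacterial homologue L19 lies at the interface between the subunits, read 1816, 1890.4 and 2269.5 on the arrays labelled wild type and 1085, 815 and 954 on those labelled knockout. Every knockout-labelled value was below every wild-type-labelled one. The ratio of knockout-labelled to wild-type-labelled was 0.477 (log2 difference -1.07, SE 0.18, limma adjusted p = 0.00125). A dimmer probe set of the same gene went the other way, as described below. The mean over all the gene's probe sets gave -0.004, but it takes in a further probe set under the filter, at 34.9 against 84.2 on average (1.30).

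Mrpl33 (chr5:31613951-31622644), the homologue of the small bacterial protein L33, read 1271, 1112 and 1073 against 587, 619.5 and 549, with no overlap. The ratio was 0.509 (log2 difference -0.98, SE 0.17, limma adjusted p = 0.00155). With the mean of its probe sets, one of them dim, the difference was -0.45 and the limma adjusted p was 0.228. Mrpl58 (chr11:115403724-115412674), also known as Ict1, is a peptidyl-tRNA hydrolase built into the large subunit that frees stalled mitochondrial ribosomes. It read 1514, 1533 and 1855 against 1072, 909 and 818, a ratio of 0.57 (log2 difference -0.81, SE 0.18, limma adjusted p = 0.00496). The mean of its probe sets was 0.38 in the opposite direction.

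Mrpl43 (chr19:45005014-45006442), a protein with no bacterial homologue, read 1846, 1906 and 2317 against 1475, 1184 and 1037. All knockout-labelled values were lower, at a difference of -0.72 on the log2 scale (SE 0.18, limma adjusted p = 0.0106). Mrpl44 (chr1:79776018-79781445), which has a fold like that of ribonuclease III, read 2718.5, 2684 and 3092 against 2099, 1949 and 1528. Its log2 difference was -0.62 (SE 0.17, limma adjusted p = 0.0146), and the adjusted p was 0.0619 without knockout-labelled array 3. The mean of its 4 probe sets gave -0.27 (limma adjusted p = 0.182). Mrpl40 (chr16:18872018-18876637) read 1426, 1409 and 1759 against 1027, 934 and 1150.0, a log2 difference of -0.56 (SE 0.17, adjusted p by limma = 0.023). Its adjusted p was 0.078 without knockout-labelled array 2 and 0.0509 without wild-type-labelled array 1. After quantile normalization neither Mrpl44 (-0.38, limma adjusted p = 0.091) nor Mrpl40 (-0.43, 0.0763) passed.

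Of the 29 Mrps genes 8 were lower, and Mrps6, Mrps15 and Mrps12 led. Mrps6 (chr16:92058336-92112227), homologue of bacterial S6, read 1294, 1284 and 1298 on the arrays labelled wild type and 739, 681 and 666 on those labelled knockout. The ratio was 0.538 (log2 difference -0.90, SE 0.16, limma adjusted p = 0.00165), and both groups were tight, with SDs of 7.45 and 38.5 (n = 3 each). A dimmer probe set of Mrps6 stood at 478.5 and 462.5 on average (-0.05, not called), and the mean of both gave -0.47 (limma adjusted p = 0.0399). Mrps15 (chr4:126046928-126055536), homologue of S15, which binds small-subunit RNA early in assembly in bacteria, read 1654, 1959 and 1950.5 against 1067, 974 and 1078. Its log2 difference was -0.83 (SE 0.16, limma adjusted p = 0.00245), and a further bright probe set gave -0.93.

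Mrps12 (chr7:28739641-28741821) is the homologue of S12, which lies at the decoding site. It read 1915, 1771 and 2382 against 1483, 913 and 1106, with no overlap, at a ratio of 0.57 (log2 difference -0.81, SE 0.21, limma adjusted p = 0.0119). Together with Mrpl43 these 3 small-subunit genes were called lower in all 16 alternative fits, which the other 14 called genes were not. Mrps12 and Mrpl43 have 1 probe set each, so averaging probe sets left their values unchanged, and median centring moves every gene down. Mrpl19, Mrpl33 and Mrpl58 lost their calls only with the mean of probe sets, and Mrpl32 and Mrpl54 only after median centring. The count therefore does not rank these genes by firmness.

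**Figure D3:**
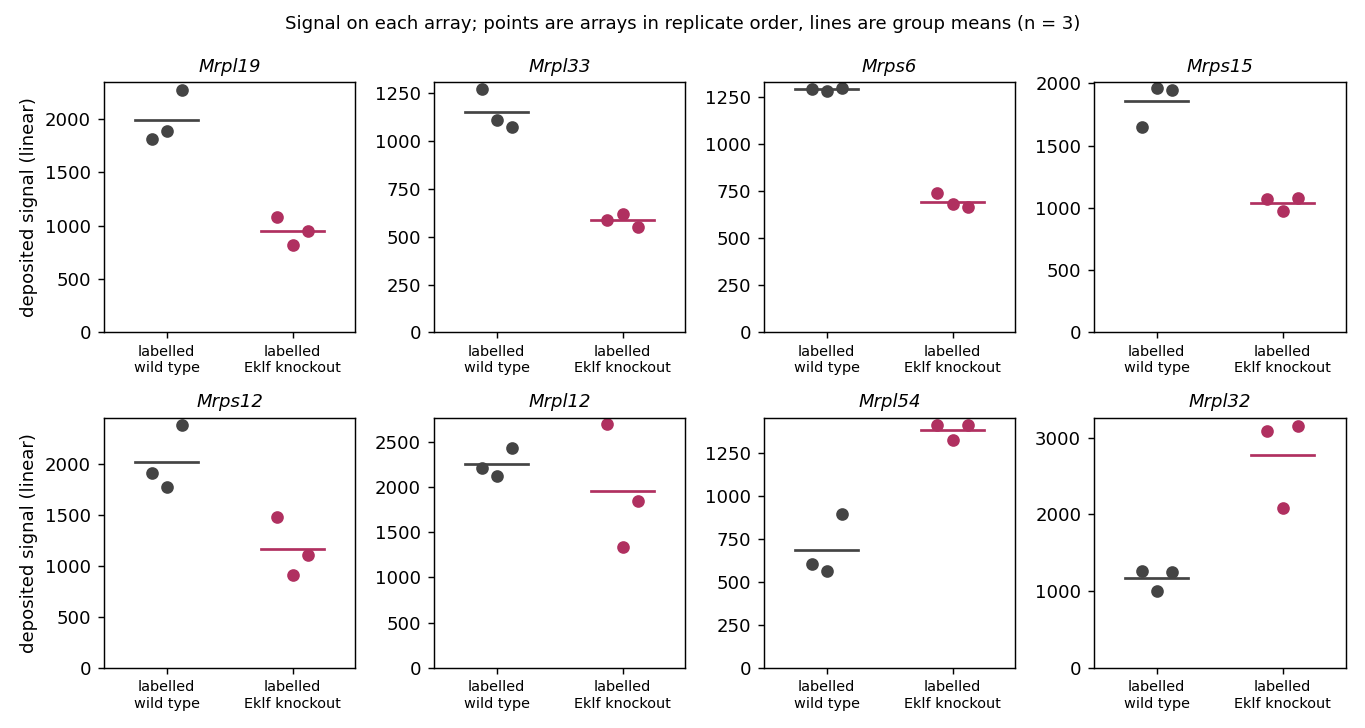
Deposited signal (linear, vertical axis from 0) on each of the 3 wild-type-labelled and 3 knockout-labelled arrays for 8 Mrp genes; each point is 1 array and lines are group means. Mrpl19, Mrpl33, Mrps6, Mrps15 and Mrps12 are lower on all 3 knockout-labelled arrays, Mrpl54 and Mrpl32 are higher on all 3, and Mrpl12 overlaps.

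The other small-subunit calls were smaller and less firm. Mrps2 read 1406, 1534 and 1227 against 960.5, 897 and 837, a difference of -0.63 on the log2 scale (SE 0.17, limma adjusted p = 0.0124), with an adjusted p of 0.0577 without wild-type-labelled array 2. Its probe sets disagree, as described below, and their mean gave -0.0038 (limma adjusted p = 0.987). Mrps23, a small-subunit protein without a bacterial homologue, read 1398, 1348 and 1438 against 913, 891 and 1040.0, a log2 difference of -0.56 (SE 0.16, adjusted p by limma = 0.0156). Its adjusted p was 0.0512 without knockout-labelled array 2 and 0.0581 without wild-type-labelled array 1, and 0.07 after cyclic loess. For both genes the groups did not overlap.

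Mrps24, the mitochondrial counterpart of bacterial S3, read 1485, 1376 and 1804 against 1189, 971 and 1039, a difference of -0.54 on the log2 scale (SE 0.17, limma adjusted p = 0.0283). Leaving out wild-type-labelled array 1 or 3 or knockout-labelled array 2 or 3 gave adjusted p of 0.0677, 0.0512, 0.0906 and 0.0808. It was not called after quantile normalization (0.0941) or cyclic loess (0.122) either. A second, similarly bright probe set read 1134 against 1450 on average (0.37, limma adjusted p = 0.161), and the mean of the gene's probe sets was -0.08 (0.717). Mrps26 read 2058, 2125 and 2288 against 2019, 1011 and 1259. Knockout-labelled array 1 lay just under the wild-type-labelled range, and the log2 difference of -0.65 (SE 0.24) had a limma adjusted p of 0.0473, the nearest to the threshold from inside. Mrps9 followed, at 1045, 1106 and 1193 against 846, 846 and 674 (log2 difference -0.51, SE 0.17, limma adjusted p = 0.0365). The adjusted p of Mrps26 was 0.0823 to 0.164 and that of Mrps9 0.0546 to 0.127 whenever an array other than knockout-labelled array 1 was dropped. Neither was called after quantile normalization (0.167 and 0.0717) or cyclic loess (0.16 and 0.0867), and the means of their probe sets were 0.47 and 0.06.

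Just outside the threshold were Mrpl4 and Mrpl51. Mrpl4 read 1716, 1719 and 2314 against 1611, 1177 and 1265 (log2 difference -0.50, SE 0.19, limma adjusted p = 0.0541) without overlap. Mrpl51, the brightest Mrp gene, read 5525, 5048 and 6609.9 against 5142, 3319.5 and 3822 (log2 difference -0.50, SE 0.19, limma adjusted p = 0.0574), where knockout-labelled array 1 lay among the wild-type-labelled values.

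Mrpl32 and Mrpl54 stood apart as the Mrp genes that were higher by more than 2-fold. Mrpl32 (chr13:14610301-14613037), whose protein is cut by the m-AAA protease before it joins the large subunit, read 1264, 1002 and 1252 on the arrays labelled wild type and 3088, 2084 and 3153 on those labelled knockout. The groups are far apart, at a ratio of 2.34 (log2 difference 1.23, SE 0.20, limma adjusted p = 0.00125). After median centring the difference was 0.41 (limma adjusted p = 0.241). Mrpl54 (chr10:81264722-81266926), a large-subunit protein without a bacterial homologue, read 601, 560.0 and 897 against 1411, 1327 and 1411. The ratio was 2.06 (log2 difference 1.04, SE 0.21, limma adjusted p = 0.00323), and after median centring the difference was 0.23 (limma adjusted p = 0.545). Both genes were called higher in 15 of the 16 alternative fits, including all 6 that left out 1 array. Median centring, which lowers every gene by the same constant, was the only exception.

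The 2 other genes called higher changed by less than 2-fold. Mrps31 (chr8:22410449-22429669), a small-subunit protein without a bacterial homologue, read 688, 735 and 616 against 871, 1221 and 1051, a log2 difference of 0.61 (SE 0.19, adjusted p by limma = 0.0233) that the constant of median centring puts at -0.20. Its adjusted p was 0.0625 without wild-type-labelled array 1, and 0.0841 and 0.0653 without knockout-labelled arrays 2 and 3. Mrpl50 (chr4:49512597-49521083) read 705, 755 and 907 against 1215, 1138 and 1067, a difference of 0.54 on the log2 scale (SE 0.17, limma adjusted p = 0.0282) that the same constant puts at -0.28, and that was -0.38 with the mean of its probe sets. It was called without wild-type-labelled array 3 only, the other 5 fits giving adjusted p of 0.0533 to 0.116. A second, dimmer probe set of Mrpl50 went the other way, at 475 and 238 on average (-1.30, limma adjusted p = 0.0766, not called).

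Large and small subunit genes differed little as groups. The median log2 difference was -0.14 over the 47 Mrpl genes and -0.21 over the 29 Mrps genes, and 3 and 1 genes were called higher and 6 and 8 lower (19.1% and 31.0% called). The medians differed by 0.075. On single arrays the Mrpl minus Mrps median had an SD of 0.071 within groups, which is the spread of 1 array and not of a difference between groups of 3. The difference of medians was -0.006 without wild-type-labelled array 1, -0.042, -0.016 and -0.00697 without knockout-labelled arrays 1, 2 and 3, and -0.034 after quantile normalization, so its sign was not stable. In the brightest class 4 of 33 Mrpl and 3 of 13 Mrps genes were called, and in the next class 5 of 13 and 6 of 15. By array, the median of the Mrpl genes relative to the wild-type-labelled mean was -0.06, -0.10 and 0.19 in the wild-type-labelled samples and -0.08, -0.19 and -0.20 in the knockout-labelled samples. The medians of the Mrps genes were -0.04, -0.09 and 0.10 against 0.01, -0.23 and -0.08. For both subunits wild-type-labelled array 2 lay within the range of the knockout-labelled arrays and wild-type-labelled array 3 above it, while array 1 lay within it for Mrps and just above it for Mrpl.

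The names do not follow the structure of the mammalian ribosome in 3 cases. Mrps18a and Mrps30 are parts of the large subunit, and Mrps36 belongs to the 2-oxoglutarate dehydrogenase complex. Mrps18a read 1057, 1056 and 1279.9 against 1500.4, 1445 and 1405 (log2 difference 0.36, SE 0.16, limma adjusted p = 0.0831), and Mrps30 read 1138, 1017 and 1360.4 against 1595, 1508 and 1489 (0.40, SE 0.17, 0.0748). In both genes every knockout-labelled value was above every wild-type-labelled one, without passing the threshold. After quantile normalization both passed, at limma adjusted p of 0.0329 and 0.0281, and without wild-type-labelled array 3 at 0.0266 and 0.0198. Mrps36 read 1565, 1250.3 and 1806 against 1668, 1989 and 2206, with overlap (0.35, SE 0.19, limma adjusted p = 0.15), and it too passed after quantile normalization (0.0424). Cyclic loess and array weights also brought all 3 genes past the threshold. Placed by structure, 9 of 49 large-subunit and 9 of 26 small-subunit genes were called, and the medians were -0.13 and -0.21.

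The ribosome's proteins also divide into those inherited from bacteria and those added in mitochondria. Of 44 genes with bacterial homologues 1 was higher and 8 were lower (median -0.08), and of 29 mitochondria-specific genes 3 were higher and 6 lower (median -0.23). Among all genes tested 20.8% were lower and 27.9% higher. By subunit, the genes with bacterial homologues gave 6 lower calls and no higher one among 16 of the small subunit (limma, 6 at an unadjusted p under 0.05), and 2 lower and 1 higher among 28 of the large. The difference between these classes was not tested. Mrpl12, the stalk protein that has also been reported to bind the mitochondrial RNA polymerase, read 2207, 2125 and 2433 against 2701, 1337 and 1845. Its knockout-labelled values spanned both sides of the wild-type-labelled ones (log2 difference -0.26, SE 0.24, limma adjusted p = 0.39).

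The remaining probe sets of these genes did not always follow the brightest one. Of all 156 probe sets, 137 passed the filter when each was fitted by itself, and 16 were called higher (11.7%) and 21 lower (15.3%), against 28.1% and 15.7% of all 27023 probe sets. The 61 that were not the brightest of their gene gave 12 higher and 8 lower calls, with a median of 0.08. Of the 19 under the filter, 12 lay above 0. In 38 genes with more than 1 probe set past the filter, the signs differed in 20, namely Mrpl1, Mrpl3, Mrpl9, Mrpl11, Mrpl15, Mrpl19, Mrpl21, Mrpl27, Mrpl28, Mrpl33, Mrpl48, Mrpl49, Mrpl50, Mrpl51, Mrpl58, Mrps2, Mrps5, Mrps9, Mrps14 and Mrps24. In 5 of them probe sets were called in both directions.

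Mrpl19 had 2 bright probe sets at -1.07 and -0.95, and a dimmer one that rose from a mean signal of 319 to 519.6 (0.70, limma adjusted p = 0.0285). Mrpl58 was lower by its bright probe set and higher by a dim one, from 94.8 to 269 (1.57, limma adjusted p = 0.011). Mrps2 had a second probe set at 368 and 561 (0.62, limma adjusted p = 0.0435), and Mrps9 one at 244 and 505 (1.06, limma adjusted p = 0.0279). In these 4 genes the rising probe set was the dimmer one. Mrpl9 was split between bright ones, 1 lower (1436 to 913, -0.63, limma adjusted p = 0.0322) and 1 higher (789 to 1128, 0.52, limma adjusted p = 0.0396), while its brightest was at -0.01. Mrpl15, with 8 probe sets, gave 1 lower call (-0.71, limma adjusted p = 0.0101) among its 6 past the filter. For Mrps15 and Mrps23 a further probe set was called lower as well, at -0.93 and -0.96, and for Mrps31 a further one was called higher at 1.15.

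**Figure D4:**
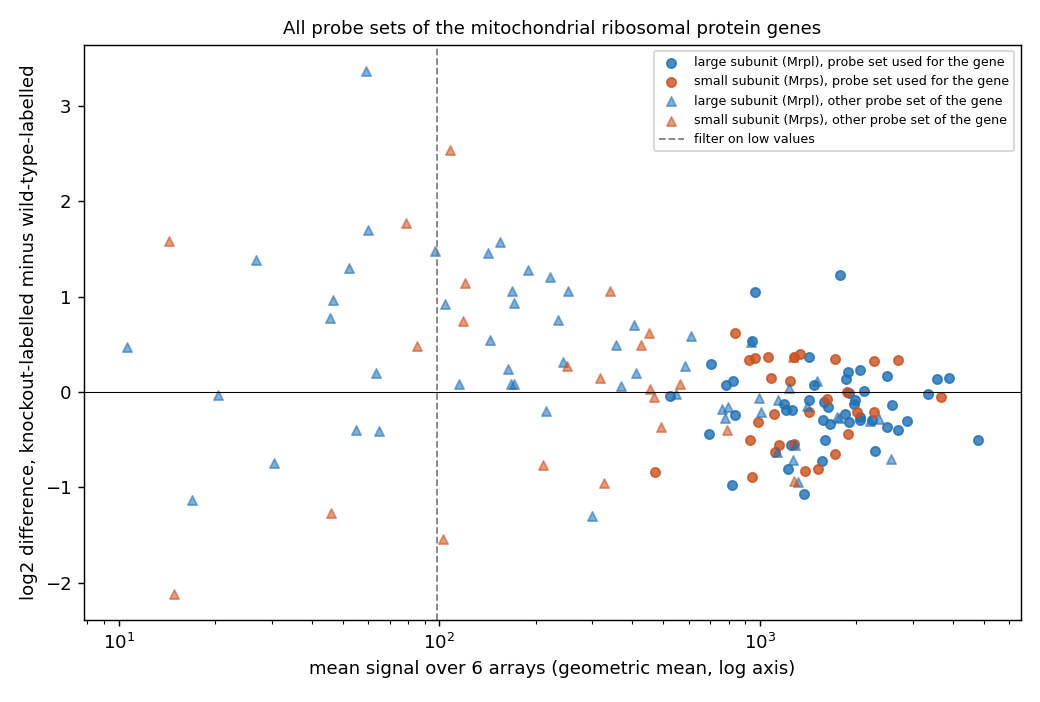
Log2 difference (knockout-labelled minus wild-type-labelled) against mean signal over 6 arrays (log axis) for all 156 probe sets of the Mrp genes; circles are the probe set used for the gene, triangles the others, blue Mrpl and orange Mrps, and the dashed line is the filter at a signal of 98.6. Circles cluster at high signal near 0, and the triangles at low signal spread widely, 12 of the 19 under the filter lying above 0.

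Probe sets shared with another gene were kept out of the counts. The 2 probe sets of Mrpl30, shared with Gm6238, differed by -0.18 and -1.10. The one of Mrpl53, shared with Ccdc142, differed by 0.37, and one that Mrps34 shares with Nme3 differed by -0.16. Their signal cannot be assigned to 1 gene.

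Other genes that build, serve or regulate mitochondrial translation were read from the same fit, by lists chosen with earlier results of these data known. Their counts stand beside the 20.8% lower and 27.9% higher of all genes tested, and nothing particular to a list is read from them. Among 4 tested mitoribosome proteins with other names, none passed (limma, 1 at an unadjusted p under 0.05). Gadd45gip1, a large-subunit protein, read 1125, 908 and 1472 against 939.8, 726 and 620.5 (log2 difference -0.61, limma adjusted p = 0.0541), and Dap3, a GTP-binding protein of the small subunit, differed by -0.23. Of 23 assembly genes 2 were lower and 2 higher (8.70% each). Tfb1m, which dimethylates the small-subunit RNA, read 1102, 955 and 1445 against 376, 448 and 407, a log2 difference of -1.49 (SE 0.21, adjusted p by limma = 0.000471), larger in size than that of any Mrp gene. Nsun4, a methyltransferase of the same RNA, fell by 0.93 on the log2 scale (limma adjusted p = 0.0101) at its brightest probe set and stood at 0.11 with the mean of its probe sets. Its adjusted p was 0.0505 without wild-type-labelled array 1. Mrm1, a methyltransferase of the large-subunit RNA, was higher at 1.05 (limma adjusted p = 0.0226), and Ngrn, an assembly factor, at 0.46 (0.0448), the latter at -0.35 after median centring. Mrm1 was not called after any of the 3 rescalings (0.24 to 0.53), nor without wild-type-labelled array 1 or 2 or knockout-labelled array 1 (limma adjusted p = 0.0756, 0.0738 and 0.0696). Ngrn was called without wild-type-labelled array 3 only, the other 5 fits giving 0.0672 to 0.133.

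Of 16 mitochondrial translation factors 2 were lower and 2 higher (12.5% each). Qrsl1 and Gatc encode subunits of one enzyme, the amidotransferase that makes glutaminyl-tRNA in mitochondria. Qrsl1 read 1124, 858 and 844 against 551, 231 and 238, a difference of -1.58 on the log2 scale (SE 0.33, limma adjusted p = 0.00428). Gatc read 868, 1003 and 886 against 1328, 1251 and 1444, a log2 difference of 0.55 (SE 0.16, adjusted p by limma = 0.0195) that was -0.27 after median centring. Its adjusted p was 0.0796 without wild-type-labelled array 1 and 0.0725 without knockout-labelled array 3. Gfm2, which splits ribosomes for recycling, was higher at 0.85 (limma adjusted p = 0.00695), and at 0.04 after median centring (0.915). Mtif3, an initiation factor, was lower at -1.11 (limma adjusted p = 0.0487), a call that was lost without any array other than knockout-labelled array 2 (0.0596 to 0.143).

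Of 8 genes of mitochondrial transcription 2 were lower (25%), close to the 20.8% of all genes, and none was higher (limma, 4 at an unadjusted p under 0.05 in either direction). Tfam, which packs mitochondrial DNA and starts its transcription, read 1993, 1949 and 1879 against 1293, 957 and 864, a difference of -0.92 on the log2 scale (SE 0.18, limma adjusted p = 0.00331), and -0.11 with the mean of its probe sets. Tfb2m, the partner that opens the promoter, read 1290.4, 1044 and 798 against 695, 540.1 and 602, a log2 difference of -0.75 (SE 0.22, adjusted p by limma = 0.0185). Every knockout-labelled value of both genes was below every wild-type-labelled one. The adjusted p of Tfb2m was 0.0849 and 0.054 without wild-type-labelled arrays 1 and 2, and 0.0631 and 0.0529 without knockout-labelled arrays 2 and 3.

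Of 11 nuclear regulators linked to such genes, 5 were lower (45.5%) and 1 higher (9.09%), against 20.8% and 27.9% of all genes. In either direction 54.5% were called, near the 48.7% of all genes. The contrast in direction was not tested. Yy1, a zinc-finger factor, read 6578, 6071 and 6466 against 3133, 3268 and 2777, a difference of -1.06 on the log2 scale (SE 0.14, limma adjusted p = 0.00038). With the mean of its probe sets the difference was -0.22. Myc, an activator of ribosome and growth genes, read 3232, 3592 and 3347 against 2366, 1632 and 2183 (-0.73, SE 0.17, limma adjusted p = 0.00769). Gabpb1, a subunit of the ETS factor GABP, stood at -0.67 (limma adjusted p = 0.02), Pprc1, a coactivator, at -0.63 (0.033) and Mycn at -1.59 (0.0468). Mycn read 812, 780 and 651 against 710, 222 and 96.7 (SE 0.58). Its groups overlapped, with knockout-labelled array 1 among the wild-type-labelled values. The adjusted p of Gabpb1 was 0.0676 without wild-type-labelled array 1 and 0.0682 without knockout-labelled array 2, its probe sets averaged -0.20 (0.341), and Pprc1 and Mycn were not followed through the alternative fits. Nrf1, also not followed through those fits, was not called, at 0.53 (limma adjusted p = 0.0526). The coactivator Ppargc1a was higher (1.61, limma adjusted p = 0.00926) at dim signals of 67, 101 and 46.5 against 214, 215 and 194, and after the 3 rescalings its difference was 0.73 to 0.79 (0.099 to 0.123).

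**Figure D5:**
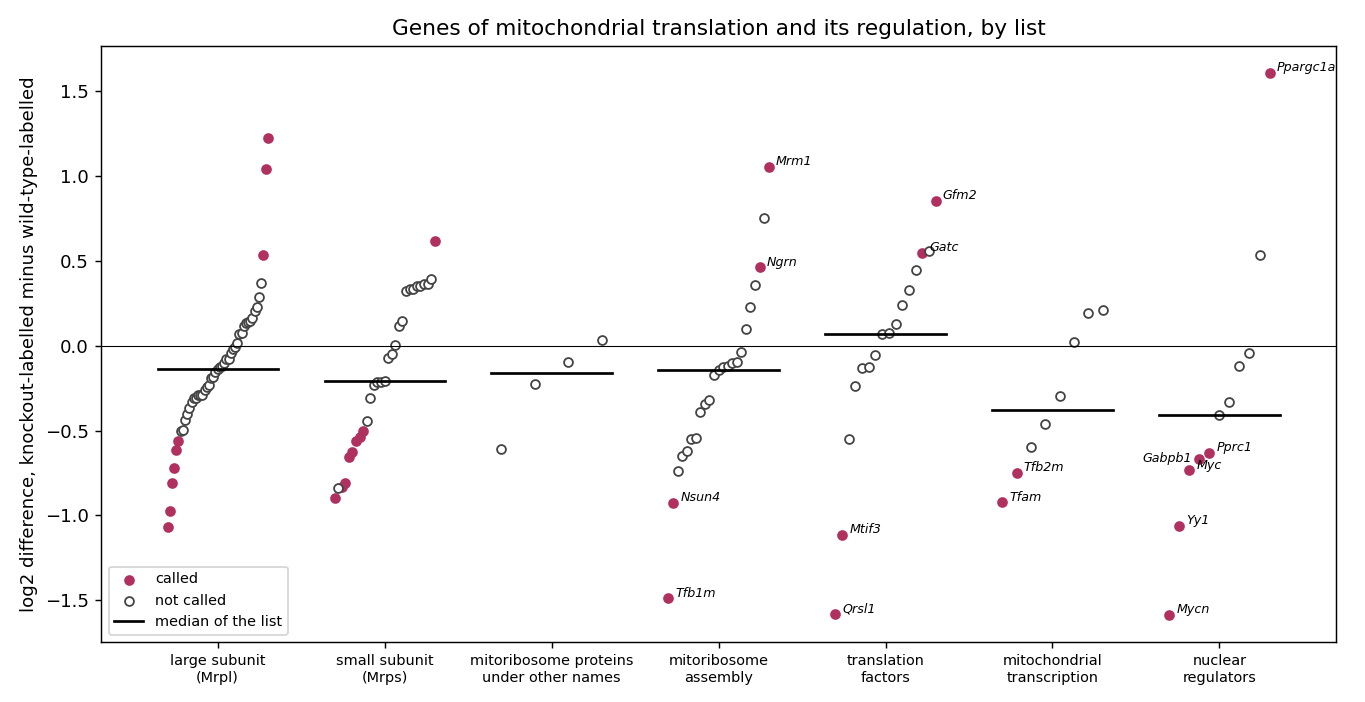
Log2 difference (knockout-labelled minus wild-type-labelled) of each tested gene of the Mrpl and Mrps groups and of 5 further lists, in order of difference within each list; filled points passed a limma adjusted p of 0.05, open points did not, and bars are list medians. Called genes outside the Mrp groups are named, from Mycn (-1.59, with overlapping groups) and Qrsl1 (-1.58) to Ppargc1a (1.61). The values are on the deposited scale, and signs of single genes can turn under another scaling, as given in the text.

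The promoters of the Mrp genes were searched for motifs, which the choice of members did not use. RefSeq windows of 300 bases, from 250 before to 50 after the start, were found for 67 of the 76 genes (73 windows). The ETS core was in 34.2% of them, against 15.8% of the windows of all genes tested and 8.86% of all promoters. The NRF1 element was in 34.2%, against 25.9% and 15.9%. The YY1 motif was in 17.8%, against 6.78% and 6.34%. The KLF box was in 64.4%, near the 66.4% of genes tested and above the 49.5% of all promoters. Different motifs shared bases in 2 member windows, and a match is a description of letters and not a bound site. The contrasts between these shares were not tested, and the genes tested were not matched to the Mrp genes by brightness.

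Among windows of genes called lower, 6 of 13 held the ETS core, 6 the NRF1 element, 2 the YY1 motif and 8 the KLF box. Among the 57 windows of genes not called the numbers were 19, 18, 10 and 38. The 3 windows of genes called higher held 0, 1, 1 and 1. With so few windows these shares give no order between the groups.

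A start on the opposite strand within 1000 bases upstream was found for 25 of the 67 Mrp genes (37.3%), against 18.5% of genes tested and 12.3% of all genes in the promoter table. Whether these shares differ was not tested, and members of such pairs did not always move alike. Mrps12 and Sars2, the mitochondrial seryl-tRNA synthetase, start 147 bases apart, and Mrps12 was at -0.81 while Sars2 was at 0.88 (SE 0.20, limma adjusted p = 0.00639). The rise of Sars2 was not called after cyclic loess (0.63, limma adjusted p = 0.0532) or median centring (0.06, 0.862). Mrpl32 and Psma2, a proteasome subunit, start 205 bases apart and were at 1.23 and -0.21 (limma adjusted p = 0.28 for Psma2). Mrpl43 and Twnk, the mitochondrial DNA helicase, start 116 bases apart and were at -0.72 and -0.29 (limma adjusted p = 0.275 for Twnk). Mrpl46 and Mrps11, a large and a small subunit gene, start 42 bases apart and were at -0.19 and 0.37, neither called. Mrpl40 faces Hira at 113 bases, with -0.56 and -0.50 (limma adjusted p = 0.117 for Hira). The difference between the genes of a pair was not itself tested.

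The 76 genes lie on 17 chromosomes, with 11 on chromosome 11 and 8 on chromosome 17, so that the group is scattered over the genome.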

How the data were processed

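Expression was measured on 6 single-colour Affymetrix arrays, 3 per genotype label; the labels call the RNA samples independent. The deposited values are linear intensity values per probe set which the authors made with MAS5 and the Affymetrix Expression Console (so the submitters' processing notes list the tools, without versions). Detection calls were not used here. MAS5 scales each array to a common trimmed mean, which leaves medians free to differ.

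Probe sets were named from the platform annotation, in which 34958 list 1 gene and 932 several, while 9211 were not listed and stay unnamed; symbols were updated through RefSeq (GRCm38.p6), which matched all 156 Mrp probe sets. The 64 control probe sets were left out. Signals under 1 (303 values) were set to 1 and log2 was taken. For each gene the brightest probe set (by mean log2 signal) was used. Genes dimmer than the 40th percentile over probe sets (6.62, a signal of 98.6) were left out, and 12799 were tested with limma 3.58.1 in R 4.3.3 (lmFit, eBayes with trend; two-sided). P-values were adjusted by Benjamini and Hochberg's method over all 12799 genes, with a threshold of 0.05. Adjusted p-values of genes come from limma throughout. Probe sets were fitted in the same way. The fit was tested on simulated data.

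Genes named are the called genes with the largest changes, those on each side of the threshold, those whose probe sets differ in sign, 6 fixed genes, and for each other list up to 4 with the smallest p. Mrpl22, Mrps27, Pprc1, Mycn and Nrf1 fall outside this rule and were chosen with their values in view, like the divergent neighbours. The Mrp genes and the lists were chosen with earlier results of these data known. Motifs and divergent starts were searched by exact match in RefSeq promoter windows. Alternatives covered scaling, an offset of 16, the filter, the choice of probe set, the variance model, array weights, a replicate block and each array left out. The mean of probe sets was taken over all probe sets of a gene, including those under the filter.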

Additional observations from a re-analysis of the deposited data

How the results depend on the processing

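With 3 arrays a group the number of arrays limits the precision, and the scaling moved the counts most. Mrp genes called higher numbered 12 after quantile normalization, 11 after cyclic loess, 0 after median centring, and 9 with array weights, and 2 to 8 with 1 array left out; fitted one by one, 16 Mrp probe sets were higher. Those called lower numbered 9 after quantile normalization, 8 after cyclic loess, 59 after median centring and 7 with the mean of probe sets, and 9 to 17 with 1 array left out. Median centring adds the same -0.815 to the log2 difference of every gene, so its counts and signs follow from that constant and say nothing about single genes. Of the 27 Mrp genes above 0, 25 lie below 0 after it, where limma called 0 higher. The median log2 difference of the Mrp genes was 0.022 after quantile normalization, 0.028 after cyclic loess, -0.96 after median centring and -0.034 with the mean of probe sets. The median of Mrpl minus that of Mrps was -0.034 after quantile normalization and -0.042 to 0.048 with 1 array left out. Among named genes with a call on either scale, median centring turned the sign of Mrpl49 (-0.70), Mrpl50 (-0.28), Mrps31 (-0.20), Chchd1 (-0.78), Gatc (-0.27) and Ngrn (-0.35). The mean of probe sets turned the sign of Mrpl50 (-0.38), Mrpl58 (0.38), Mrps26 (0.47), Mrps9 (0.056), Nsun4 (0.11) and Ptcd3 (0.78). For Mrps26 the second probe set in this mean was under the filter. The cause of the shifts other than those of median centring was not tested. With the replicate number as a block, 4 Mrp genes were higher and 14 lower, 17 of the 18 calls remained, Mrps9 dropped out (limma adjusted p = 0.058) and Mrpl51 entered (0.0426), and Ngrn was no longer called (0.066). Under this replicate block 6277 genes were called in all, against 6232. Same-numbered arrays deviated from their group means with correlations of 0.04, 0.05 and 0.08, too low to call them pairs; each array correlated best with its own number, a hint from the data and not from the design.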
